A study of Homo sapiens with 6 samples.

Results

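The 39 genes described here encode proteins that build the small (40S) ribosomal subunit. They were listed by name, with no measured value in the rule, out of 62703 genes in the table. Of the 39, 30 act in the nucleolar small subunit processome and 7 are classed as late pre-40S factors. The late class is named for the cytoplasm, though not all of its members join the particle there. BYSL, for example, joins it in the nucleus. The classes are therefore not a strict split by place. RRP12 and DIMT1, which act on nuclear pre-40S particles, stand between these classes. Each symbol matched 1 row. All 39 met the filter on low values (mean TPM over the 6 libraries of 1 or more), as did 15768 genes in all.

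RNA sequencing was done on H9, a line of human embryonic stem cells that is pluripotent in culture. The design compares 2 groups of 3 libraries described as biological replicates. In one group NPM1 was knocked down by RNA interference (titles siNPM1, treatment siB23, with siB23-3 for replicate 3; B23 is another name of the protein), and the other carries the titles siControl and the treatment Control. Times after treatment and the duplex sequences are not given in the labels. NPM1, which encodes the nucleolar protein nucleophosmin, was read at 3109, 2969 and 3132 TPM in siControl replicates 1, 2 and 3 and at 173, 165 and 238 TPM in siNPM1 replicates 1, 2 and 3. The knockdown libraries thus kept 6.26% ± 1.31 (SD, n = 3) of the control mean (limma log2 difference -4.01, adjusted p = 0.000852), and siControl replicate 2 was at the control level.

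The processome is a large particle that forms on the nascent ribosomal RNA precursor. Its UTP-A and UTP-B complexes bind the external spacer at the front of the precursor, the U3 snoRNP pairs with it, and single factors hold the 18S domains apart until the spacer is removed. The particle that leaves the nucleolus is exported, and late factors keep it from translating until the last cut makes mature 18S rRNA. Nucleophosmin resides in the outer zone of the nucleolus.

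A control library stood apart from its group. On the first principal component of all genes tested, the scores of siControl replicates 1 and 3 were -59.9 and -61.7; the component held 54.4% of the variance. siControl replicate 2 scored 28.1, next to the knockdown libraries, whose scores ran from 30.4 to 32.2. On the second component siNPM1 replicate 1 stood apart at 48.7, with siNPM1 replicates 2 and 3 at -10.8 and -6.64. There siControl replicates 1, 2 and 3 scored -1.73, -32.2 and 2.60. The mitochondrially encoded share of TPM was 10.96% and 11.14% in siControl replicates 1 and 3, 23.3% in replicate 2, and between 18.6% and 21.6% after knockdown. All 8 pluripotency markers were present in every library, with sums of 3842 to 4212 TPM in siControl and 3178 to 3812 TPM in siNPM1. Single markers went different ways. POU5F1 read 2231, 1706 and 2266 TPM in siControl and 1375 to 1393 TPM in siNPM1. NANOG read 86.9 to 93.7 TPM, then 67 to 71 TPM, and TDGF1 765 to 859 TPM, then 450 to 476 TPM. ZFP42 read 43.9, 110 and 39.3 TPM, then 110 to 130 TPM, and DNMT3B 277, 522 and 294 TPM, then 507 to 669 TPM. SOX2, LIN28A and SALL4 were highest in siNPM1 replicate 1, at 239, 784 and 77.9 TPM. The 8 markers of other cell types summed to 8.57 to 11.5 TPM and 19.8 to 22.9 TPM, most of it COL1A1, while SOX17, CDX2 and COL3A1 were at 0.04 TPM or below in each library. PAX6 read 7.87 TPM in siNPM1 replicate 1 and 0.85 to 1.90 TPM in the other libraries, and TWIST1 0.51 to 1.41 TPM in siControl and 0.16 to 0.58 TPM in siNPM1. The part of these differences in the results was not tested. The results below are given with and without siControl replicate 2. This library was singled out by its values in these same data. Adjusted p values without it follow that choice and rest on 2 controls.

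Promoter sequence is shown for 4 genes that span the results, as the 250 bases before the RefSeq start (GRCh38.p14, gene strand, 5′ to 3′). UTP3 had the most positive log2 difference of the members (chr4:70688282-70688531, plus strand) and EMG1 the smallest p (chr12:6970663-6970912, plus strand). TSR1 had the most positive log2 difference of the late factors (chr17:2336458-2336707, minus strand), and KRR1 the most negative of all members (chr12:75511610-75511859, minus strand). Capitals mark CCGGAAG, a core bound by ETS factors, on either strand.
UTP3: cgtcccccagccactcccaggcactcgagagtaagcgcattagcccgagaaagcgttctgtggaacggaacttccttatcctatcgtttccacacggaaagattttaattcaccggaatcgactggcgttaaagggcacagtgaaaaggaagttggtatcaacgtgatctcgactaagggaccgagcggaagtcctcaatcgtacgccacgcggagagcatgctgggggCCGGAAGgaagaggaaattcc
EMG1: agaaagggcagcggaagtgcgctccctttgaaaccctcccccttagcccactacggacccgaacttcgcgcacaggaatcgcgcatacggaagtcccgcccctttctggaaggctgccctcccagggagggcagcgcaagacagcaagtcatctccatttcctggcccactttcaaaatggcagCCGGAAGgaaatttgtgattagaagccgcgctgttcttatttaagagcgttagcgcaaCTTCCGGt
TSR1: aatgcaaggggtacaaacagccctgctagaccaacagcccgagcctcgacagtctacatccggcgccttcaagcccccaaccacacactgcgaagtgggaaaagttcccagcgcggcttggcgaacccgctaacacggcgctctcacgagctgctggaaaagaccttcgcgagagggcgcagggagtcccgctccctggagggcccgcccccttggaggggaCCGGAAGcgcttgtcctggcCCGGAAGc
KRR1: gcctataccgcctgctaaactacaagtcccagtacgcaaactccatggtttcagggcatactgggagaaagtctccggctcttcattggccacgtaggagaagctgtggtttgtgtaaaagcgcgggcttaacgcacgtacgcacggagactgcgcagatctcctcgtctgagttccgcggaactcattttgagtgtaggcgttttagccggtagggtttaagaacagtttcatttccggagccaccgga

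A window was found for 34 of the 39 members, with no entry for DCAF13, UTP23, MPHOSPH10, NOL10 and RRP12. On both strands, CCGGAAG was in 12 of the 34 windows (35.3%) and in 15.8% of 10958 windows of genes tested. The 12 were UTP4, PWP2, UTP18, WDR3, WDR36, UTP3, RRP9, EMG1, WDR46, LTV1, TSR1 and RIOK1, so they come from both the processome and the late class. The median log2 difference between siNPM1 and siControl was 0.53 over these 12 genes and 0.39 over the other 22. The E-box CACGTG was in 6 windows (17.6%, against 8.86%) and the YY1 core ATGGCG in 6 (17.6%, against 9.18%). The GC box GGGCGG was in 26 (76.5%, against 67.9%) and CCAAT in 14 (41.2%, against 35.3%). The NRF1 core GCATGCGC was in 2 (5.88%, against 4.78%) and CTCGCGAG in 1 (2.94%, against 1.72%). Motifs were searched one by one, so bases may be shared between them, and a match of letters is not a binding site.

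With all 6 libraries, 0 of the 39 members passed in either direction (limma on log2(TPM + 1), Benjamini-Hochberg adjusted p under 0.05 over 15768 genes), and 0% of all genes tested passed as higher. Adjusted p values of the members ran from 0.212 to 0.984. Of the log2 differences, siNPM1 minus siControl, 37 were positive (94.9%) and 2 negative, where 59.9% of all genes tested were positive. Once each library was centred on its median, 30 were positive, and the share of all genes was not counted. The median of the 39 differences was 0.41, against 0.10 over all genes tested, and centring moved these to 0.28 and -0.02. At an unadjusted p under 0.05, 14 members (35.9%) were higher and 0 lower, where 13.2% of all genes tested were higher. Median centring lowered the count of 14 to 8 (all genes tested 8.5%) and quantile normalization to 10 (8.9%). Without siControl replicate 2 it was 28, where 31% of all genes tested were higher. It was 2 without siControl replicate 1 or 3 (5.25% and 5.55%), 6 without siNPM1 replicate 1 (8.91%), and 4 without siNPM1 replicate 2 or 3 (6.49% and 6.78%). In bulk RNA, fewer cells of a type and less RNA per cell cannot be told apart, and TPM gives shares of a library.

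**Figure D1:**
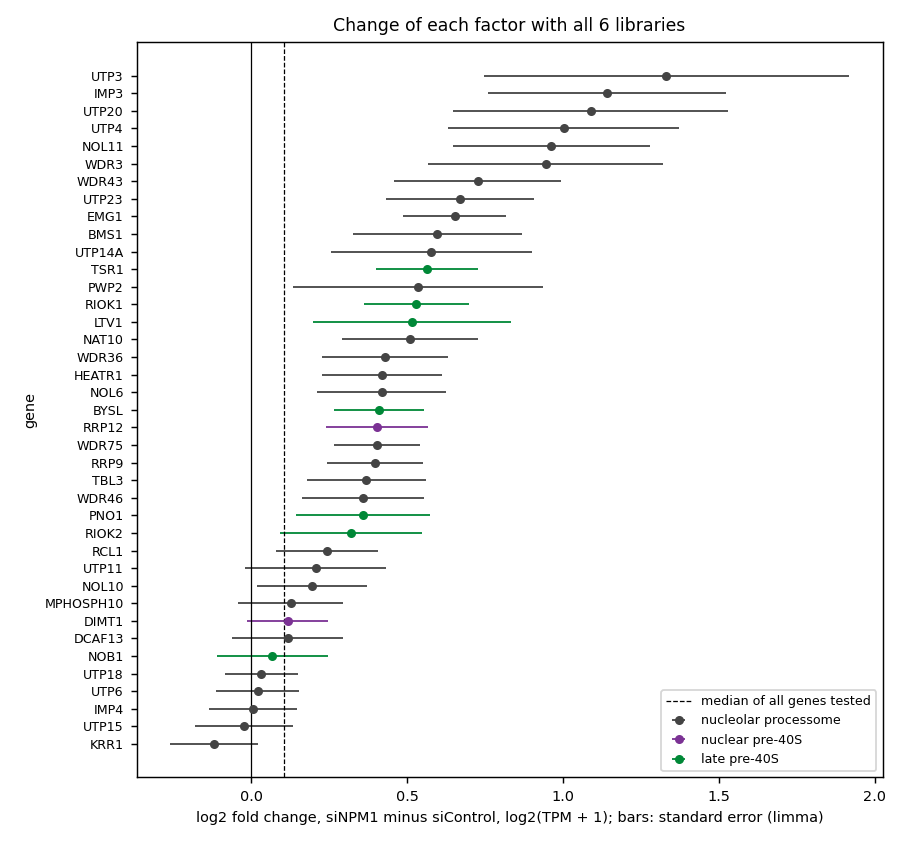
Log2 difference of each of the 39 factors (points; siControl subtracted from siNPM1, log2(TPM + 1)) with its standard error from limma (bars), coloured by class; the dashed line is the median of all genes tested, 0.10. UTP3 lies highest at 1.33 with a wide bar and KRR1 lowest at -0.12, and the late factors lie within the range of the processome.

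The groups did not overlap for 12 members, each with the higher values in siNPM1: NOL11, WDR43, WDR75, IMP3, RRP9, RCL1, EMG1, UTP23, RRP12, TSR1, BYSL and RIOK1. That is 30.8% of the members, against 16.2% of all genes tested. Median centring lowered the count of 12 to 8 and quantile normalization to 10, and for these the share of all genes was not counted. With fewer libraries groups overlap less often by construction: the count was 29 without siControl replicate 2, where 40.6% of all genes tested did not overlap in this direction, and 22 without siNPM1 replicate 1, where 23.2% did not. It was 13 and 12 without siControl replicate 1 or 3 (all genes tested 18.2% for each), and 14 and 12 without siNPM1 replicate 2 or 3 (19.8% and 20.2%). Summed over the 39 members, TPM was 1019, 1399 and 971 in siControl and 1381, 1451 and 1539 in siNPM1. The sums overlapped through siControl replicate 2, which lay above siNPM1 replicate 1.

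Without siControl replicate 2, 24 members passed as higher (61.5%) and 0 as lower, where 24.1% of all genes tested passed as higher. These were 5 of the 6 UTP-A subunits, 3 of the 6 in UTP-B, 3 of the 5 genes of the MPP10 and U3 group, BMS1, both modifying enzymes, 5 of the 9 other processome factors and 5 of the 7 late factors. Against siControl replicate 2 alone, 28 of the 39 log2 differences were positive, where 8635 of all 15768 genes tested were. The median was 0.07, against 0.04 over all genes tested. Differences from this 1 library are given as values without a test. With array weights, which count libraries far from the fit for less, 30 members passed as higher, where 36.6% of all genes tested did.

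siControl replicate 2 was above both other controls for 31 of the 39 members (79.5%), against 50.8% of all genes tested. It was within the range of the knockdown libraries for 17 members (43.6%, against 40.2% of all genes tested), below that range for 16, and above it for 6. The 6 were MPHOSPH10, UTP3, UTP11, UTP14A, KRR1 and LTV1.

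**Figure D2:**
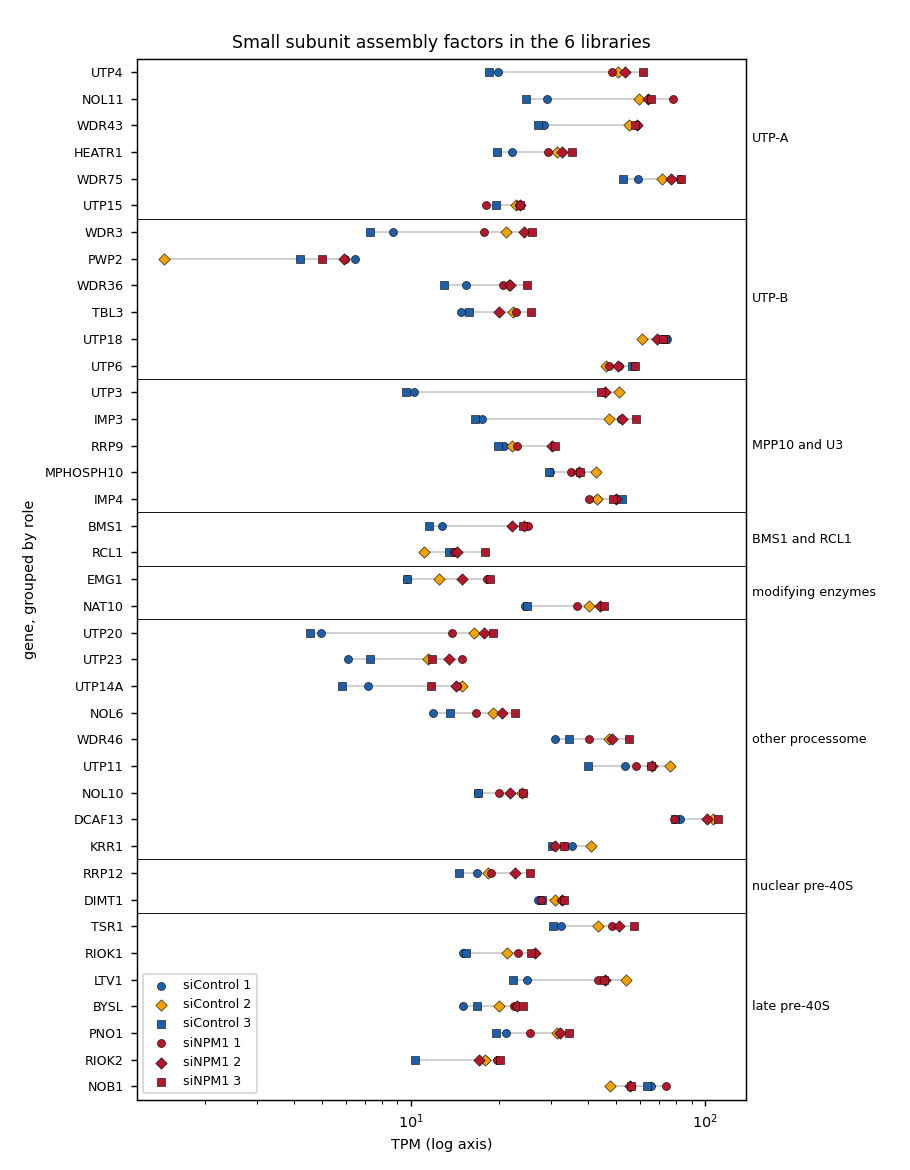
TPM of the 39 factors in each of the 6 libraries (log axis), grouped by role and ordered within a role by log2 difference; blue marks are siControl replicates 1 and 3, the orange diamond is siControl replicate 2 and red marks are siNPM1. The orange diamond lies within the red range for 17 genes, above it for 6, such as UTP3, and below it for 16, such as EMG1.

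The strand setting of the counting is unknown, so reads of genes that overlap in exons on opposite strands cannot be told apart. Of the members given in full below, this concerns UTP4, UTP15, WDR3, UTP6, IMP3, IMP4, EMG1, DCAF13, KRR1, RRP12, NOB1, TSR1 and RIOK1. EMG1 also overlaps C1S in exons on its own strand.

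The UTP-A complex is among the first to bind the precursor and in human cells is also linked to its synthesis. Its 6 subunits had a median log2 difference of 0.57. At an unadjusted p under 0.05, 4 of them were higher, where 13.2% of all genes tested were. The count was 1 of 6 for UTP-B, 2 of 5 for the MPP10 and U3 group, and 0 of 2 for BMS1 and RCL1. It was 1 of 2 for the modifying enzymes, 2 of 9 for the other processome factors, 1 of 2 for RRP12 and DIMT1, and 3 of 7 for the late factors. For UTP4, also called cirhin (ENSG00000141076, chr16:69131291-69231130, plus strand), the controls read 19.8, 50.6 and 18.5 TPM and the knockdown libraries 48.4, 53.4 and 61.6 TPM. siControl replicate 2 was among the knockdown values and the other controls far below (limma log2 difference 1.00, SE 0.371, adjusted p = 0.238; without that library 1.46, adjusted p = 0.00232). NOL11 read 28.9, 59.6 and 24.6 TPM in the controls and 78.01, 64.1 and 65.8 TPM after knockdown. Its groups did not overlap, though siControl replicate 2 came close to siNPM1 replicate 2 (limma log2 difference 0.96, SE 0.316, adjusted p = 0.226). WDR43 read 28.3, 55.2 and 27.1 TPM, then 58.6, 58.7 and 58.00 TPM, again with siControl replicate 2 just below the knockdown libraries. WDR75 and HEATR1 had log2 differences of 0.40 and 0.42. UTP15 (ENSG00000164338, chr5:73565443-73583377, plus strand) differed from the rest of the complex, with controls at 23.4, 22.8 and 19.5 TPM and knockdown libraries at 17.99, 23.5 and 23.4 TPM. Its groups overlapped, and siControl replicate 2 lay between the other controls (limma log2 difference -0.02, SE 0.157, adjusted p = 0.940).

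UTP-B helps to bring the U3 snoRNP to the precursor. Its 6 subunits were uneven, with a median log2 difference of 0.40 and a range of 0.02 to 0.94. WDR3 (ENSG00000065183, chr1:117929720-117966542, plus strand) had control values of 8.67, 21.1 and 7.29 TPM and knockdown values of 17.7, 24.2 and 25.8 TPM. As for UTP4, siControl replicate 2 was inside the knockdown range (limma log2 difference 0.94, SE 0.378, adjusted p = 0.246; without it 1.38, adjusted p = 0.00590). WDR36 and TBL3 shared this order at smaller size, with log2 differences of 0.43 and 0.37. UTP6 (ENSG00000108651, chr17:31860899-31901765, minus strand) was near level between groups that overlapped, with 50.8, 45.99 and 56.5 TPM in the controls and 47.1, 50.8 and 57.7 TPM after knockdown (limma log2 difference 0.02, SE 0.133, adjusted p = 0.939), as was UTP18 at 0.03. PWP2 had the lowest mean of the members, 4.84 TPM (ENSG00000241945, chr21:44107290-44131181, plus strand). Its controls read 6.47, 1.45 and 4.21 TPM and its knockdown libraries 5.98, 5.92 and 5.00 TPM. siControl replicate 2 was the lowest library here, as it was for UTP6 and UTP18 (limma log2 difference 0.53, SE 0.400, adjusted p = 0.450; against siControl replicate 2 alone 1.43). In PWP2, 89.7% of the 50-base stretches of its transcript also occur in FP565260.1, so how its reads were assigned is uncertain.

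MPHOSPH10, IMP3 and IMP4 form the MPP10 complex, UTP3 (Sas10 in yeast) is a neighbour in the particle, and RRP9 is a protein of the U3 snoRNP. UTP3 (ENSG00000132467, chr4:70688479-70690551, plus strand) showed a wide split among the controls, which read 10.3, 50.8 and 9.59 TPM, while the knockdown libraries read 45.5, 45.8 and 44.3 TPM. siControl replicate 2 was 5.12 times the mean of the other controls and above all knockdown libraries. The difference depended on it (limma log2 difference 1.33, SE 0.585, adjusted p = 0.265; without it 2.08, adjusted p = 0.00129; against it alone -0.17). IMP3 read 17.5, 47.2 and 16.5 TPM in the controls and 51.95, 52.3 and 58.4 TPM after knockdown. Its groups did not overlap, and the knockdown mean was 1.15 times siControl replicate 2 and 3.19 times the mean of the other controls (limma log2 difference 1.14, SE 0.381, adjusted p = 0.227). IMP4 (ENSG00000136718, chr2:130342225-130347810, plus strand), a Brix-domain protein of the same complex, had control values of 42.9, 43.1 and 52.04 TPM and knockdown values of 40.3, 49.8 and 48.5 TPM. These overlapped, with no library apart from the rest (limma log2 difference 0.01, SE 0.140, adjusted p = 0.984), and MPHOSPH10 had 0.13. RRP9 had controls that lay close together, at 20.8, 22.04 and 19.8 TPM, below the knockdown libraries at 22.96, 30.2 and 30.9 TPM. Here siControl replicate 2 was the highest control and lay just below siNPM1 replicate 1 (limma log2 difference 0.40, SE 0.153, adjusted p = 0.243, and without siControl replicate 2 0.43, adjusted p = 0.0748).

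BMS1 is a GTPase of the processome and RCL1 its partner. BMS1 (ENSG00000165733, chr10:42782801-42834937, plus strand) read 12.8, 24.2 and 11.5 TPM in the controls and 25.01, 22.1 and 23.99 TPM after knockdown. siControl replicate 2 was inside the knockdown range (limma log2 difference 0.60, SE 0.271, adjusted p = 0.275; without it 0.91, adjusted p = 0.00401), and 11.3% of the 50-base stretches of BMS1 occur in other genes. RCL1 (ENSG00000120158, chr9:4792869-4885917, plus strand) had control values of 13.98, 11.1 and 13.5 TPM and knockdown values of 14.00, 14.3 and 17.9 TPM. Its groups touched without overlap, and siControl replicate 2 was the lowest library (limma log2 difference 0.24, SE 0.164, adjusted p = 0.407).

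Of the enzymes that modify 18S rRNA, EMG1 methylates a pseudouridine and NAT10 acetylates cytidines. EMG1 (ENSG00000126749, chr12:6970893-6997428, plus strand), whose promoter is printed above, had the smallest p of the members. The controls read 9.67, 12.4 and 9.71 TPM and the knockdown libraries 18.1, 14.9 and 18.6 TPM. The groups did not overlap, and siControl replicate 2 was nearer to the mean of the other controls than to that of siNPM1. The difference was positive against both kinds of control (limma log2 difference 0.65, SE 0.165, adjusted p = 0.212; without siControl replicate 2 0.76, adjusted p = 0.0101; against it alone 0.43). NAT10 (ENSG00000135372, chr11:34105602-34147670, plus strand) read 24.4, 40.5 and 24.9 TPM in the controls and 36.7, 43.99 and 45.2 TPM after knockdown, with siControl replicate 2 inside the knockdown range (limma log2 difference 0.51, SE 0.217, adjusted p = 0.257; without it 0.74, adjusted p = 0.00841).

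For all 9 other processome factors siControl replicate 2 lay above both other controls. UTP20, a large scaffold protein (ENSG00000120800, chr12:101280109-101386616, plus strand), had control values of 4.96, 16.4 and 4.54 TPM and knockdown values of 13.8, 17.7 and 19.01 TPM. Its groups overlapped through siControl replicate 2 (limma log2 difference 1.09, SE 0.441, adjusted p = 0.247; without it 1.62, adjusted p = 0.00305). UTP23, a PIN-fold protein, had a log2 difference of 0.67 with no overlap between the groups. UTP14A, a cofactor of the helicase DHX37, had 0.58, and 11.9% of its 50-base stretches occur in the copy UTP14C. NOL6 (Utp22 in yeast) had 0.42, WDR46 (Utp7 in yeast) 0.36, UTP11 0.21 and NOL10 (Enp2 in yeast) 0.19. DCAF13 (Sof1 in yeast) had the highest mean of the members, 93.2 TPM (ENSG00000164934, chr8:103414714-103443453, plus strand). It read 82.3, 106 and 79.2 TPM in the controls and 78.7, 101 and 111 TPM after knockdown, which overlapped (limma log2 difference 0.12, SE 0.177, adjusted p = 0.712). KRR1, an RNA-binding KH protein (ENSG00000111615, chr12:75490861-75511636, minus strand), had controls at 35.3, 40.8 and 30.3 TPM and knockdown libraries at 33.1, 30.9 and 33.1 TPM. Its highest library was siControl replicate 2 (limma log2 difference -0.12, SE 0.141, adjusted p = 0.635; against that library alone -0.33).

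RRP12, an export factor of pre-40S particles (ENSG00000052749, chr10:97356358-97426076, minus strand), read 16.8, 18.3 and 14.6 TPM in the controls and 18.7, 22.7 and 25.3 TPM after knockdown. The groups were narrowly separated (limma log2 difference 0.40, SE 0.163, adjusted p = 0.247; without siControl replicate 2 0.47, adjusted p = 0.0614). DIMT1, which dimethylates adenosines of 18S rRNA (ENSG00000086189, chr5:62387254-62403939, minus strand), had 27.00, 30.9 and 27.9 TPM against 27.6, 32.7 and 33.2 TPM, and its groups overlapped (limma log2 difference 0.12, SE 0.131, adjusted p = 0.608).

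Among the late factors are proteins that keep the exported particle idle and the nuclease that makes the last cut. TSR1, a GTPase-like protein on the joining face of the particle (ENSG00000167721, chr17:2322503-2337507, minus strand), read 32.4, 43.2 and 30.4 TPM in the controls and 48.2, 50.98 and 57.5 TPM after knockdown. siControl replicate 2 lay between the other controls and the knockdown libraries, and the groups did not overlap (limma log2 difference 0.56, SE 0.163, adjusted p = 0.216; without it 0.71, adjusted p = 0.00690; against it alone 0.26). The atypical kinase RIOK1 showed the same order, with 15.1, 21.2 and 15.4 TPM in the controls and 23.1, 26.5 and 25.6 TPM after knockdown (limma log2 difference 0.53, SE 0.167, adjusted p = 0.221). BYSL, or bystin, joins the particle in the nucleus, and it read 15.1, 19.9 and 16.7 TPM, then 22.4, 22.9 and 23.97 TPM, also without overlap (limma log2 difference 0.41, SE 0.143, adjusted p = 0.234). LTV1, which sits near the beak of the subunit, resembled UTP3, with controls at 24.8, 53.8 and 22.2 TPM and knockdown libraries at 43.2, 45.9 and 45.2 TPM. siControl replicate 2 was its highest library (limma log2 difference 0.51, SE 0.317, adjusted p = 0.371), and 30.4% of its 50-base stretches occur in other gene models, which overlap it on the same strand. PNO1, which shields the cleavage site, had a log2 difference of 0.36 and the kinase RIOK2 0.32. NOB1, the nuclease of the last cut (ENSG00000141101, chr16:69741867-69754940, minus strand), read 65.7, 47.6 and 63.5 TPM in the controls and 73.7, 55.4 and 56.05 TPM after knockdown. siControl replicate 2 was its lowest library, and the groups overlapped (limma log2 difference 0.07, SE 0.178, adjusted p = 0.839).

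Between the nucleolar and the late class, median log2 differences were 0.42 over 30 genes and 0.41 over 7 genes. Relative to each gene's mean over the 6 libraries, processome medians were -0.36, 0.19 and -0.42 in siControl and 0.09, 0.20 and 0.33 in siNPM1. Late medians were -0.38, 0.04 and -0.43 in siControl and 0.17, 0.25 and 0.27 in siNPM1. The processome median of siControl replicate 2 was among those of the knockdown libraries, and its late median was below each of them. Late minus processome was -0.02, -0.15 and -0.02 in siControl and 0.08, 0.05 and -0.06 in siNPM1, so the groups overlapped through siNPM1 replicate 3. Summed TPM of the late class was 192, 235 and 178 in siControl and 255, 251 and 263 in siNPM1, which did not overlap. This separation rests on NOB1, the late factor with the highest mean, at 47.6 TPM in siControl replicate 2 and 73.7 TPM in siNPM1 replicate 1. With NOB1 left out, siControl replicate 2 would lie above siNPM1 replicate 1 in the late sum. For the processome the sums were 783, 1115 and 751, then 1080, 1145 and 1217, and these overlapped through siControl replicate 2.

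**Figure D3:**
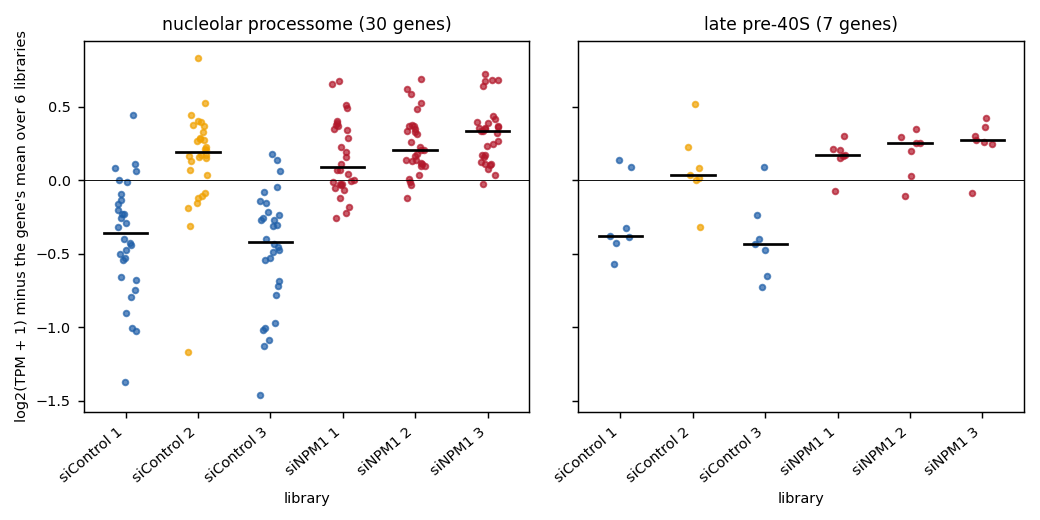
Deviation of each gene from its own mean over the 6 libraries (log2(TPM + 1), points) for the 30 processome factors and the 7 late factors; black bars are medians, blue points siControl replicates 1 and 3, orange points siControl replicate 2 and red points siNPM1. The median of siControl replicate 2 stands at 0.19 in the processome, among the siNPM1 medians of 0.09 to 0.33, and at 0.04 in the late class, below all siNPM1 medians.

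**Figure D4:**
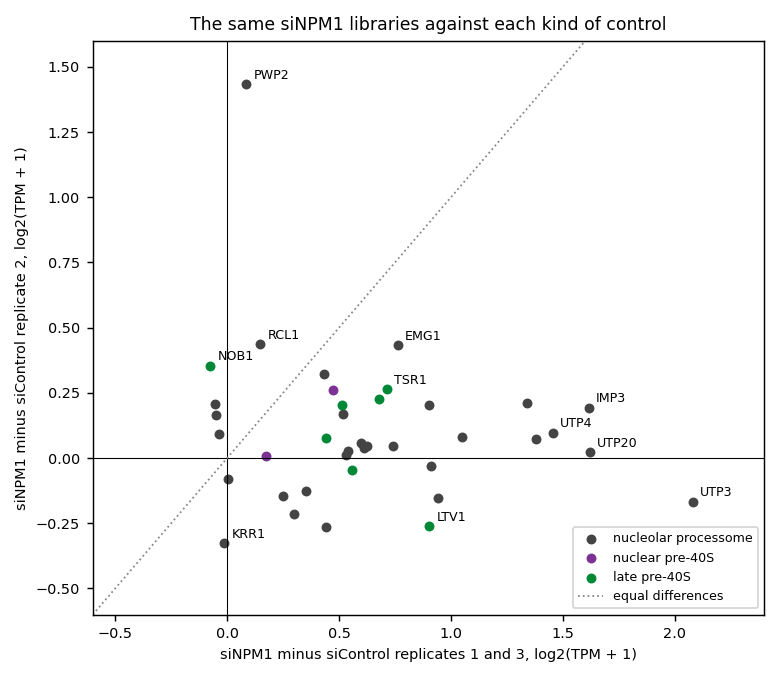
The siNPM1 mean minus siControl replicates 1 and 3 (horizontal) and minus siControl replicate 2 (vertical) for each member, on the log2(TPM + 1) scale; both use the same siNPM1 libraries. UTP3 lies at 2.08 and -0.17, EMG1 at 0.76 and 0.43, TSR1 at 0.71 and 0.26, and PWP2 at 0.09 and 1.43.

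Of 36 further factors of small subunit assembly, 0 passed in either direction with all 6 libraries. Their median log2 difference was 0.29, with 30 positive (83.3%, against 59.9% of all genes tested) and 6 negative. At an unadjusted p under 0.05, 6 were higher and 1 lower, where 13.2% and 6.45% of all genes tested were. Both counts are small, and the share of higher genes, 16.7%, is near that background. PDCD11 (Rrp5 in yeast) read 21.9, 32.3 and 25.1 TPM in the controls and 33.9, 41.2 and 43.6 TPM after knockdown (limma log2 difference 0.57, SE 0.179, adjusted p = 0.221). EXOSC10, a nuclease of the nuclear exosome, read 36.95, 50.96 and 38.99 TPM, then 59.3, 52.2 and 57.98 TPM (limma log2 difference 0.42, SE 0.152, adjusted p = 0.237). Neither overlapped between the groups. Without siControl replicate 2, 19 of the 36 passed as higher and 2, TRMT112 and TSR2, as lower, where 24.1% and 12.9% of all genes tested passed.

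Some members also carry small nucleolar RNAs, the guides of rRNA modification, within their gene bodies. SNORA38B lies within NOL11, SNORD92, SNORD53 and SNORD53B within WDR43, and SNORD91A and SNORD91B within TSR1, each on the strand of its host. These 3 hosts are 7.69% of the members, against 1.87% of 12822 protein-coding genes tested.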

How the data were processed

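The authors deposited 1 table of gene TPM values, with group means that were not used. Per the submitters' processing notes the build was GRCh38; the aligner, counting tool, annotation and strand setting are not given in the sources used here. TPM keeps no sequencing depth, so depth is unknown. Columns were matched to samples by name.

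Values were analysed as log2(TPM + 1) with limma 3.58.1 in R 4.3.3 (variance trend, two-sided moderated test, Benjamini-Hochberg adjustment, threshold 0.05), for the 15768 genes whose TPM averaged 1 or more. For any single value, exact permutation of 3 libraries against 3 reaches 0.1 at the lowest. This scale understates changes of low genes. The script was tested on simulated data with known shifts. With all 6 libraries it recovered 30 of 100 genes shifted by a log2 difference of 1 and 69 of 100 shifted by 2. Without siControl replicate 2 it recovered 39 and 82. A gene that did not pass may therefore still differ. The p-values measure the spread between these libraries, and the labels do not say how the replicates were raised.

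The members, their classes and the 36 further factors were chosen with earlier results of these data known. Values are given in full for the most positive and most negative member of each role, the smallest p in each direction, the highest and lowest mean TPM, and the 2 further factors with the smallest p. NOL11, WDR43, IMP3, RRP9, RIOK1, BYSL, LTV1 and the 7 motifs were chosen after values were seen. Gene positions come from GENCODE release 29 (GRCh38), promoters from RefSeq (GRCh38.p14). Alternatives changed the pseudocount, filter, scaling, block, variance prior, weights and libraries.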

Additional observations from a re-analysis of the deposited data

How the results depend on the processing

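The number of members past the threshold was 0 with all libraries, 0 to 24 when 1 library was left out (24 without siControl replicate 2), and 30 with array weights, which also gave a late median of 0.63. Taking siControl replicate 2 alone as control gave median log2 differences of 0.074 (members), 0.052 (processome) and 0.20 (late), and late minus processome of 0.15; the cause was not tested. Members without overlap numbered 12 to 29 when 1 library was left out, where 18.2% to 40.6% of all genes tested did not overlap in that direction. They numbered 8 after median centring and 10 after quantile scaling, where the share of all genes was not counted. Pseudocounts of 0.1 and 5, no filter, a minimum mean of 5 TPM, median centring, quantile scaling, removal of mitochondrial and ribosomal protein genes before rescaling, and a robust variance prior each gave 0 member calls. Over all genes, calls were 0 higher and 4 lower with all libraries, 3805 and 2028 without siControl replicate 2, and 5771 and 3715 with array weights. With the replicate block, 0 members passed, and their median was 0.41, against 0.10 over all genes tested. Deviations of libraries with the same number correlated at 0.0652, 0.0814 and -0.0383, and replicate 3 did not correlate best with its own number, so the block was not read as a pairing.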
